A study of Mus musculus with 16 samples.

Results

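Cells labelled Anterior somitic tissues were followed through chimeric mouse embryos, in which *Stat3* null donor cells grew up inside wild-type (WT) hosts. Members were all cells with this transferred label that passed the authors' quality filter and were not called doublets, taken from every stage. WT-sorted cells that held a UMI (unique molecular identifier, one counted transcript) of tdTomato were left out, which removed 4 cells. This left 253 of 37841 cells analysed, of which 137 were null and 116 were WT.

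The donors were embryonic stem cells on the CD1 background, homozygous for a *Stat3* deletion and carrying tdTomato, injected into CD1 blastocysts with intact *Stat3*. The number of donor lines is not given in the sources used here. Chimeras were taken at E7.5, at E8.5 and also at E9.5 (days of embryonic development), dissociated and sorted by flow cytometry into tdTomato-positive cells (null) and tdTomato-negative cells (WT). Both fractions came from the same chimeras, so null cells developed among WT cells. At E7.5 and E8.5 there were 2 null and 2 WT libraries each, and at E9.5 there were 4 of each, 16 libraries in all. Embryos were pooled within a library at the earlier stages. The study's methods give 2 embryos at E9.5, fewer than the 4 libraries of each genotype. By these numbers some libraries of a genotype share an embryo, and p-values over libraries may then be too small.

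Somites are blocks of paraxial mesoderm that form in pairs beside the neural tube and later give rise to sclerotome (vertebrae and ribs), dermomyotome (muscle and dermis) and further connective tissue. Their formation is paced by an oscillating Notch and Wnt clock in the presomitic mesoderm. The homeobox gene *Meox1* and the basic helix-loop-helix gene *Tcf15* (paraxis) mark the newly formed epithelial somite, and the most anterior somites border on the head mesoderm, which expresses *Twist1*, *Prrx2* and *Foxc1*. The label itself was transferred from a reference atlas by expression, so levels in these cells against other labels are a description and carry no test.

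The number of cells set what could be tested. A library held between 3 and 37 of these cells, with 118824 to 1222994 UMIs summed over them. Only 6 libraries of E8.5 and E9.5 had more than 15 cells, the study's minimum for tests on summed counts. These were E8.5 null A, E8.5 WT A and B, E9.5 null B and C, and E9.5 WT D, where the letters are names within a group and pair nothing. With that minimum each genotype comparison set 1 library against 2, and the lone library was assumed to vary like the others. All comparisons were therefore repeated with the 12 E8.5 and E9.5 libraries that held at least 6 cells, a choice made after the numbers of cells were seen. The E7.5 cells (10 WT and 28 null) were too few for a test of expression and are described by their levels. The share of matching atlas neighbours that supported the label had a median of 0.64 and ranged from 0.2 to 1, with 195 of 253 cells at or over 0.5. Of the members, 5 had a barcode that also occurs in another library, and 3 null cells had no tdTomato UMI.

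Genes that mark epithelial somites were low in most of these cells, which goes against the label. Pooled over members, *Meox1* stood at 24.5 CPM (UMIs per 1000000 UMIs summed over the cells), 15th of 84 labels with at least 20 cells. It stood at 443 CPM in Posterior somitic tissues, 398 CPM in Dermomyotome and 267 CPM in Sclerotome. *Tcf15* stood at 45.9 CPM, against 541 CPM in Posterior somitic tissues, 483 CPM in Dermomyotome and 185 CPM in Sclerotome. Both markers given for this label were thus higher in all 3 trunk labels than in the cells that carry it, and the cells are called here by their transferred label only. Further trunk somite genes were low as well. *Uncx*, which marks the posterior compartment of a somite, was at 4.64 CPM against 114 CPM in Dermomyotome, and *Aldh1a2*, which makes retinoic acid in trunk mesoderm, was at 7.14 CPM against 144 CPM in Posterior somitic tissues. *Ripply2*, a gene of the segmentation boundary, had no UMI among 8828898, which allows up to 0.34 CPM (3 UMIs, counting error only), and 43.1 CPM in Posterior somitic tissues. *Pax1*, a sclerotome gene, was at 5.32 CPM against 131 CPM in Sclerotome, and *Pax3*, a dermomyotome gene, was at 12.6 CPM against 253 CPM in Dermomyotome.

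**Figure D1:**
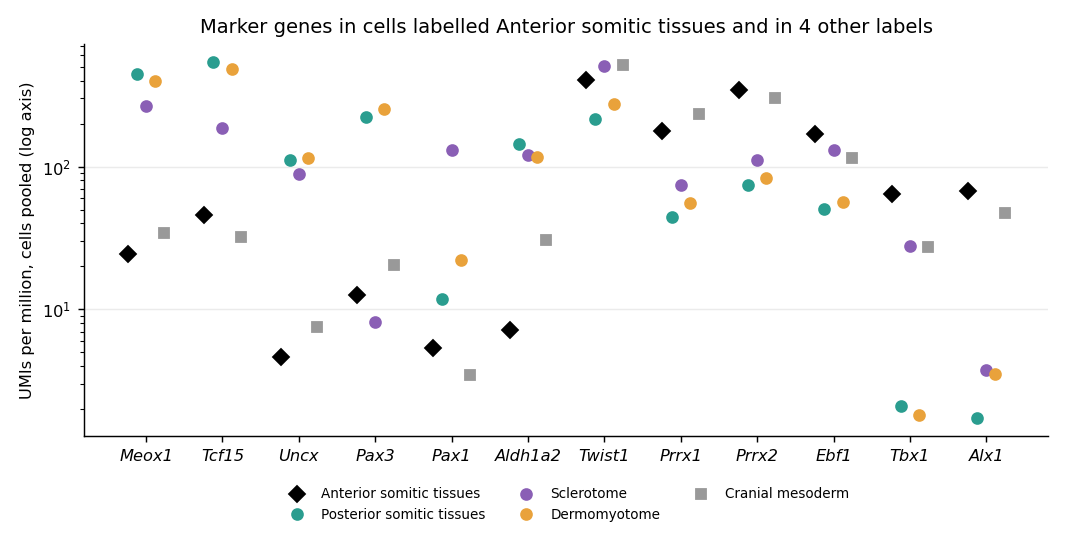
Levels of 12 genes (CPM, log axis, cells pooled over all libraries) in cells labelled Anterior somitic tissues (black diamonds) and in 4 other labels. *Meox1* and *Tcf15* lie far below Posterior somitic tissues and Dermomyotome, while *Prrx2*, *Tbx1* and *Alx1*, pooled over stages, lie above them.

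Some genes of mesenchyme and of head mesoderm stood above their level in Posterior somitic tissues, and others did not. *Prrx2*, a homeobox gene of mesenchyme, reached 344 CPM, the highest of the 84 labels, against 300.5 CPM in Cranial mesoderm and 74.1 CPM in Posterior somitic tissues. *Twist1*, a regulator of mesenchymal state, stood at 406 CPM, between 217 CPM in Posterior somitic tissues and 504 CPM in Sclerotome and 512 CPM in Cranial mesoderm, and *Ebf1* at 169 CPM. *Tbx1*, required in the pharyngeal mesoderm, stood at 64.7 CPM against 2.1 CPM in Posterior somitic tissues, and *Alx1*, a gene of frontonasal mesenchyme, at 67.8 CPM against 1.73 CPM. *Alx1* varied widely, at 115 to 346 CPM in the E7.5 libraries, 2.63 to 12.2 CPM at E8.5 and 4.3 to 102 CPM at E9.5. The head mesoderm gene *Msc* was at 1.02 CPM, below 1.42 CPM in Posterior somitic tissues and 1.58 CPM in Cranial mesoderm, and *Tcf21* was at 6.8 CPM, against 93.4 CPM in the label where it was highest. Over 6724 genes, the log profile of these cells was most like that of Cranial mesoderm (Pearson r = 0.989), then Sclerotome (0.982), and Posterior somitic tissues came 11th (0.963). This order is over pooled profiles that share libraries and depth, and is given as a description.

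Single cells showed a mixture. A *Meox1* UMI was found in 59 of 253 cells, a *Tcf15* UMI in 84, both in 36 and neither in 146. *Twist1* UMIs were found in 250 of the 253. At E7.5, *Meox1* had no UMI in any of the 38 cells (up to 7.89% of cells with a UMI are compatible with a count of 0), whereas 7 of 10 WT and 18 of 28 null cells held *Tcf15*. At E8.5 and E9.5 the share of cells with both markers was low in every group, with 15 of 59 WT cells and 7 of 43 null cells at E8.5, and 6 of 47 WT cells and 8 of 66 null cells at E9.5. With each cell thinned to 10000 UMIs, *Meox1* was found in 14.9% of WT and 10.6% of null cells at E9.5 (29.8% and 21.2% before thinning). This was above the 3.76% of Erythroid cells, which should lack the gene, and far below the 90.5% of Posterior somitic tissues. The medians of UMIs per cell were 32616 in WT and 39537 in null members, 22533 in Erythroid cells and 36930 in Posterior somitic tissues. Cells whose label had less than 0.5 support held more *Meox1* (50.9 CPM over 58 cells) than those with more support (16.9 CPM over 195 cells). For *Tcf15* the levels were closer, at 53.5 and 43.7 CPM. This split pools the stages, whose median support was 0.68 at E7.5, 0.74 at E8.5 and 0.56 at E9.5. *Hox* genes, whose paralogue number follows position along the body axis, gave a related picture. UMIs of paralogue groups 1 to 4 were found in 131 cells, of groups 5 to 9 in 92 and of groups 10 to 13 in 22. The stages differed. Groups 5 to 9 were found in 2 of 10 WT and 4 of 28 null cells at E7.5. At E8.5 the counts were 11 of 59 and 9 of 43, and at E9.5 27 of 47 and 39 of 66. These *Hox* counts were not thinned and were set against no background. Cells that held both somite markers together with a *Hox* gene of groups 5 to 9 numbered 15.

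**Figure D2:**
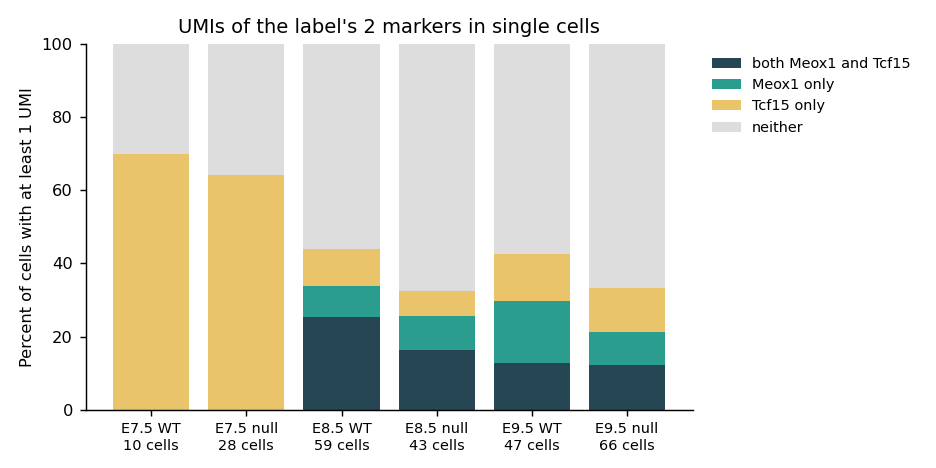
Percent of cells with at least 1 UMI of both *Meox1* and *Tcf15*, of 1 of them, or of neither, by stage and genotype (the number of cells stands under each bar, counts are not thinned). No E7.5 cell held *Meox1*, and the cells with neither gene made up the largest class at E8.5 and E9.5.

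Markers of other tissues were also measured. Over the E8.5 and E9.5 libraries, the summed level of 7 endothelial markers ranged from 5.88 to 29.8 CPM apart from E8.5 null B at 251 CPM, where 1 of 8 cells carried 66 UMIs of *Etv2*. Of 7 neural tube markers the sum ranged from 5.27 to 77.3 CPM, and E9.5 WT D was the highest. The sum of neural crest markers ranged from 29.6 to 59.5 CPM at E8.5 and from 56.2 to 152 CPM at E9.5. That of lateral plate and limb markers ranged from 29.6 to 100.1 CPM at E8.5 and from 237 to 424 CPM at E9.5. Summed erythroid markers, mostly haemoglobin transcripts, ranged from 1149.5 to 1406 CPM in 3 of the E8.5 libraries and were 199.6 CPM in E8.5 null B. At E9.5 they ranged from 253 to 839 CPM in WT and from 7.93 CPM (null B) to 1930 CPM (null C) in null libraries. Haemoglobin genes were left out of the tests, and the part of these differences in the results that follow was not tested.

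Many genes of glycolysis and of the hypoxia response were lower in E9.5 than in E8.5 WT cells. In these pathways glucose enters through transporters such as *Slc2a1*, is split by enzymes from *Hk2* to *Pkm*, and leaves as lactate made by *Ldha* and exported by *Slc16a3*. The transcription factor HIF raises most of these genes when oxygen is low. Stage and day of collection cannot be told apart in this comparison. With at least 6 cells (2 against 4 libraries), 143 of 6725 genes were called (2.13%, edgeR quasi-likelihood test, adjusted p under 0.05 and more than 1 log2 unit), 88 higher (1.31%) and 55 lower (0.818%) at E9.5. With more than 15 cells (2 against 1) 215 of 7313 were called (2.94%), 121 higher (1.65%) and 94 lower (1.29%), and 107 genes were shared. DESeq2 called 32 on the same 3 libraries, all among the 215. The list was fixed with earlier results of these data known. Of its 17 members tested, 12 were lower, none was higher and the median was -1.22 log2 units, against a median of 0.01 over all genes tested. With more than 15 cells the counts were 10 of 19 and the median -1.06. Leaving out 1 library at a time with at least 6 cells, between 8 (of 17, without E8.5 WT B) and 12 members were called lower and none higher. Without a filter on low counts the fit with more than 15 cells called no gene at all (edgeR, 1072 at an unadjusted p under 0.05), while the median of the 21 list members in it was -1.09.

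*Pgk1*, phosphoglycerate kinase, stood at 1582 and 1761 CPM in the E8.5 WT libraries and at 361, 669, 559 and 564 CPM in E9.5 WT A to D. The groups did not overlap (nor did those of 25.8% of all genes tested), with means of 1672 ± 126 (SD, n = 2) and 538 ± 129 (SD, n = 4), and the gene fell by 1.76 ± 0.14 (SE) on the log2 scale (edgeR adjusted p = 7.4e-09). *Ldha*, lactate dehydrogenase A, went from 2663 and 3058 CPM to 637, 1187, 1443 and 1218 CPM, a log2 change of -1.49 ± 0.25 (edgeR adjusted p = 0.0215). *Bnip3*, a mitochondrial receptor for mitophagy induced by hypoxia, had close values within each stage. Those of E9.5 rest on 5, 11, 9 and 19 UMIs in WT A to D, too few to judge their spread. The gene stood at 116 and 115 CPM at E8.5 and at 30.6, 25.3, 28.1 and 28.3 CPM at E9.5, a log2 change of -2.22 ± 0.24 (edgeR adjusted p = 9.56e-08). *Slc16a3*, the lactate exporter, went from 142 and 220.4 CPM to 73.5, 29.9, 81.2 and 52.0 CPM (-1.89 ± 0.25, edgeR adjusted p = 2.55e-05). *Pdk1*, which keeps pyruvate from the mitochondria, had the largest change of the list at -2.88 ± 0.41, from 55.3 and 44.6 CPM to between 0 and 11.9 CPM. Its E9.5 levels rest on 0, 3, 1 and 8 UMIs in WT A to D. *Tpi1*, *Aldoa*, *Eno1*, *Pgam1* and *Hk2*, enzymes of the glycolytic chain, changed by -1.43, -1.22, -1.07, -1.09 and -1.53, and the glucose transporter *Slc2a1* and the kinase *Pfkl* by -1.44 and -1.09. All 7 were called with at least 6 cells, while *Slc2a1* and *Pfkl* did not pass with more than 15.

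At E7.5 *Pgk1*, *Ldha* and the summed list stood above all E9.5 libraries. *Pgk1* was between 1050.0 and 1215 CPM and *Ldha* between 2220.1 and 2586 CPM in the 4 E7.5 libraries. *Pdk1* did not follow this order, at 55.4 and 16.8 CPM in E7.5 WT and 21.3 and 22.3 CPM in E7.5 null, against up to 23.2 CPM at E9.5. The summed list stood at 13091 to 15223 CPM at E7.5, at 15097 and 16982 CPM in WT at E8.5 and at 5842 to 9780 CPM in WT at E9.5. Null cells, tested apart, gave their own values. With 2 against 4 null libraries, 100 of 7092 genes were called (1.41%), 60 higher (0.846%) and 40 lower (0.564%), and 10 of 19 list members were lower with a median of -1.29. *Pgk1* went from 1559.7 and 1985 CPM to 460.4 to 690.2 CPM (-1.76 ± 0.14), and *Bnip3* from 126 and 115 CPM to 43.5 to 55.5 CPM (-1.49 ± 0.22). Of the 143 genes called in WT and the 100 in null cells, 55 were shared, which is 38.5% of the former and 55% of the latter. In other labels the summed list also stood lower at E9.5, as a description. It went from 13768 and 15160 CPM to between 11029 and 12622 CPM in WT Posterior somitic tissues, to between 8566 and 9855 CPM from 13371 and 14832 CPM in Sclerotome, and from 14088 and 15506 CPM to between 10561 and 11651 CPM in Dermomyotome. The median mitochondrial share of UMIs moved the other way, at 0.82% and 0.96% in the E8.5 WT libraries and 1.05% to 1.93% in E9.5 WT. Label support was also lower at E9.5 (median 0.56) than at E8.5 (0.74). Their part in the result was not tested.

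**Figure D3:**
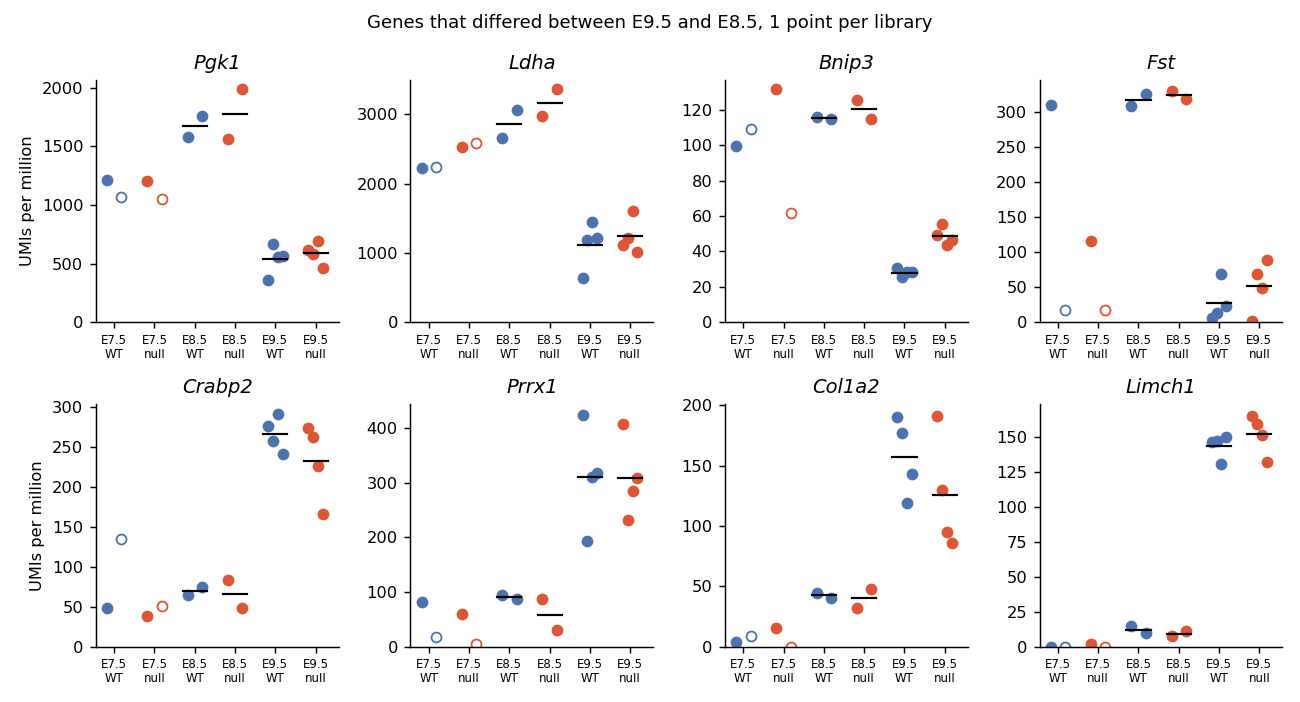
Levels (CPM, linear axes from 0) of 8 genes that differed between E9.5 and E8.5 WT cells, 1 point per library. Blue is WT, red is null, bars are means over the E8.5 or E9.5 libraries and open circles are libraries with fewer than 6 cells. The E8.5 and E9.5 points of *Pgk1*, *Ldha*, *Bnip3*, *Crabp2* and *Limch1* do not overlap in either genotype, and neither do those of 25.8% of all genes tested in WT and 29.7% in null cells.

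Sequences just upstream of starts of the genes that fell are shown because a HIF site is a short motif that can be looked up there. RefSeq windows (GRCm38.p6) of 250 bases before a RefSeq start were searched for ACGTG and GCGTG on either strand, so also as CACGT and CACGC. The 3 genes printed had the largest falls among the list members called with both minimums of cells and in null cells that have 1 window only. Capitals mark the matches, and each sequence is written on the strand of its gene. *Bnip3* (chr7:138909507-138909756, minus strand) holds 5 matches, of which 2 overlap as a palindrome, *Slc16a3* (chr11:120948817-120949066, plus strand) holds 2 and *Pgk1* (chrX:106186850-106187099, plus strand) holds 2. The *Slc16a3* window lies within the gene as the annotation gives it (chr11:120948480-120960868), downstream of its first annotated start.
Bnip3: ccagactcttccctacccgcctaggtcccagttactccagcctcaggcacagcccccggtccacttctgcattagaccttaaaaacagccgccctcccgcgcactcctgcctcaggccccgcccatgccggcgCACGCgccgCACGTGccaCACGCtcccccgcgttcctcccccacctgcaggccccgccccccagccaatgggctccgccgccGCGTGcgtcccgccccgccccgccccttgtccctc
Slc16a3: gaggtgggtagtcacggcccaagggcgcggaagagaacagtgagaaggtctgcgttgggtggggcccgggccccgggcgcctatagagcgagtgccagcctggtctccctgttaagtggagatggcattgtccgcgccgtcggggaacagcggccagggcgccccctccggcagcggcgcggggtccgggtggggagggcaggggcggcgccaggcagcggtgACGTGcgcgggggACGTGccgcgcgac
Pgk1: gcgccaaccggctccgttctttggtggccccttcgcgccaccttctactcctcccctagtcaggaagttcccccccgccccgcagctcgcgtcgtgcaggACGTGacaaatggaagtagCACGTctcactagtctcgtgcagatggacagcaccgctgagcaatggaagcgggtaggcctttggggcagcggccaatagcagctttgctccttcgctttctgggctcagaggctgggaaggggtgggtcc
Such short matches are common. Of 32851 RefSeq windows, 38.6% hold at least 1, and so do 65.8% of the 5343 tested genes with a window. Of the 12 called list members 11 hold one. A match here describes letters in the window and is no evidence of binding.

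Genes called higher in E9.5 WT cells included 2 of the retinoic acid list, the 2 collagen I genes and *Prrx1*. *Crabp2*, a carrier that delivers retinoic acid to its nuclear receptors, rose from 64.5 and 74.4 CPM at E8.5 to 276, 258, 290.5 and 241 CPM at E9.5 (1.75 ± 0.18 log2 units, edgeR adjusted p = 5.71e-08). *Rarb*, a retinoic acid receptor gene and direct target, rose from 5.27 and 2.7 CPM to between 24.5 and 27.6 CPM (2.48 ± 0.55, edgeR adjusted p = 0.00589). Of 8 retinoic acid genes tested, *Crabp2* and *Rarb* were called (25%, beside 2.13% of all genes), and the median was 0.96. In null cells *Crabp2* changed by 1.51 ± 0.22, from 83.8 and 48.1 CPM to between 166 and 273 CPM. *Crabp1*, its sister carrier, was called with more than 15 cells (1.71 ± 0.13) and in null cells (1.28 ± 0.25). It stood between 582 and 1203 CPM in the E9.5 libraries of both genotypes. *Rarb* was not called in null cells. It held 10 and 1 UMIs in E8.5 null A and B, and 4, 33, 4 and 4 in E9.5 null A to D.

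*Limch1*, an actin-binding protein gene, had one of the clearest changes. It stood at 14.5 and 9.47 CPM at E8.5 and at 147, 147, 131 and 150.2 CPM at E9.5 in WT (3.40 ± 0.28 log2 units, edgeR adjusted p = 1.57e-09), and at 7.62 and 11.1 against 132 to 166 CPM in null cells (3.99 ± 0.32). The 2 collagen I genes rose, *Col1a2* by 1.68 ± 0.23 and *Col1a1* by 1.81 ± 0.44, while the other 10 members tested of the epithelium and matrix list were not called (16.7% called, beside 2.13% of all genes). *Prrx1*, a mesenchymal homeobox gene, rose by 1.55 ± 0.22, from 94.8 and 86.6 CPM to between 193 and 423 CPM. *Foxf1*, a lateral plate gene, was called as well, but its level at E9.5 was 0 in WT A and 41.4 CPM in WT B. *Bmp4* rose by 2.62 ± 0.47, *Dnm3os*, a microRNA host transcript, by 2.97 ± 0.62 and *Meg3*, a maternally expressed imprinted transcript, by 1.26 ± 0.17. *Pim1*, a kinase gene known as a STAT target, rose from 43.4 and 33.8 CPM to between 79.6 and 131 CPM (1.07 ± 0.26, edgeR adjusted p = 0.0115), and was the only STAT3 pathway gene called of 9 tested (11.1%, beside 2.13% of all genes). It was not called with more than 15 cells.

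Of the somite genes tested between the stages, *Fst* was called with at least 6 cells. *Fst*, follistatin, which binds activins and BMPs, fell from 308 and 326 CPM to 6.12, 13.8, 68.7 and 23.8 CPM in WT (-3.63 ± 0.35, edgeR adjusted p = 0.00015). In null cells it stood at 329 and 318 CPM at E8.5 and between 2.15 and 89.4 CPM at E9.5, and the test in null cells did not call it (edgeR adjusted p = 0.125). In WT cells it was the only somite gene called of 9 tested with at least 6 cells (11.1%, beside 2.13% of all genes), and 3 of 10 were called with more than 15 (30%, beside 2.94%). There *Meox1* was also called lower (-1.47 ± 0.40) and *Nr2f1*, a nuclear receptor gene, higher (2.49 ± 0.20), but with at least 6 cells *Meox1* stood at -0.65 ± 0.42 (edgeR adjusted p = 0.472). *Twist1* did not pass in either fit, at -0.21 ± 0.14 with at least 6 cells. It stood at 441 ± 5.59 CPM (SD, n = 2) at E8.5 and 425 ± 65.2 CPM (SD, n = 4) at E9.5. Some of the largest falls with more than 15 cells were of genes with few UMIs. *Tc2n* fell by 6.12 log2 units there, but E9.5 WT C stood at 181 CPM, and the difference was 1.67 ± 2.40 with at least 6 cells. None of the 41 S phase genes and 52 G2 and M phase genes tested was called in this comparison with at least 6 cells, where 2.13% of all genes were.

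The genotype comparison asks whether null cells with this label express genes as WT cells beside them do. All null cells descend from cultured donor cells that carry tdTomato, and all WT cells from the host embryos. Genotype, donor origin, culture and the transgene therefore cannot be told apart in any null against WT difference given here. *Stat3* itself (chr11:100885098-100939540, minus strand) could not be compared. It was close to the detection limit in both genotypes, at 0 to 2 UMIs per null library and 0 to 5 per WT library at E8.5 and E9.5. Whether these tags lie outside the deleted part was not tested, so they do not check the deletion. The tdTomato transcript, which marks donor cells, was found in 134 of 137 null cells.

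Few genes were called between null and WT cells. With so few libraries and cells, a gene without a call may still differ. With more than 15 cells, 20 of 7125 genes were called at E8.5 (0.281%, 10 higher and 10 lower in null) and 15 of 7893 at E9.5 (0.19%, 5 higher and 10 lower) by edgeR's quasi-likelihood test. With at least 6 cells the counts were 3 of 6493 (0.0462%) and 4 of 5585 (0.0716%), of which 2 and 3 were among the former. Over both stages, with 12 libraries and stage as a covariate, 8 of 6889 were called (0.116%, 3 higher and 5 lower). With at least 6 cells, 34.1% of all genes tested at E8.5 and 3.67% at E9.5 had null libraries that all lay beyond all WT libraries, so that lack of overlap alone says little at E8.5. When 1 of the 12 libraries was left out in turn, *Zdbf2*, *Hist1h4i*, *Akr1e1* and *Pusl1* were called each time. *Tubb6* was lost when E8.5 null A, or else E8.5 WT B, was left out, *Has2* without E9.5 WT B or C, *Hist1h2bj* without E8.5 WT A or E9.5 WT D, and *Irak1bp1* was called in 4 of 12 fits.

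*Grb10*, an imprinted adaptor gene that restrains growth through insulin and IGF receptors (chr11:11930508-12038683), was far lower in null cells at E9.5. WT A to D stood at 423, 340.4, 434 and 429.8 CPM and null A to D at 2.15, 3.96, 5.88 and 3.31 CPM, a difference of -6.53 ± 0.24 log2 units (edgeR adjusted p = 8.21e-20). Of the 66 null cells at E9.5, those with any *Grb10* UMI were 1 of 14, 2 of 25, 4 of 21 and 1 of 6 in null A to D, while all 47 WT cells had one. At E8.5 the null libraries split. Null A stood at 12.4 CPM, with *Grb10* in 3 of 35 cells. Null B stood at 296 CPM, with *Grb10* in all 8 cells and tdTomato in 7 of them. The WT libraries stood at 348 and 275 CPM. The E8.5 call (-4.64 ± 0.27, edgeR adjusted p = 6.48e-59) therefore rests on null A and was not made with null B (-1.71 ± 1.68, edgeR adjusted p = 0.999). At E7.5 null A and B stood at 24.5 and 5.59 CPM, and WT A and B at 395 and 379 CPM. The loss was not particular to these cells. In E9.5 null libraries *Grb10* stood between 8.84 and 22.7 CPM in Posterior somitic tissues, between 3.86 and 7.91 CPM in Sclerotome and between 10.3 and 40.0 CPM in Dermomyotome. The 2 E8.5 null libraries stood apart in these labels as well. They were at 12.7 and 209.7 CPM in Posterior somitic tissues, 9.15 and 313 CPM in Sclerotome and 6.74 and 189 CPM in Dermomyotome. At E9.5 the difference was larger here than in Dermomyotome by 2.0 ± 0.37 log2 units (interaction -2.0, edgeR adjusted p = 0.0152, at least 6 cells). The differences from Posterior somitic tissues (-1.77 ± 0.38, edgeR adjusted p = 0.116) and Sclerotome (-0.76 ± 0.40, edgeR adjusted p = 1) did not pass. Null A to D held 1, 4, 5 and 1 *Grb10* UMIs here, where a count of 0 allows up to 6.45, 2.97, 3.53 and 9.94 CPM. The size of these interactions is therefore uncertain. The call against Dermomyotome was lost without WT D, null B, null C or null D in turn, with values from -2.33 to -1.66.

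*H19*, a maternally expressed imprinted RNA next to *Igf2* (chr7:142575529-142578143), was also low in most null libraries. At E9.5 WT A to D stood at 588, 522, 534 and 619 CPM and null A to D at 0, 1.98, 8.23 and 215 CPM. In null D 61 of the 65 UMIs came from 1 of 6 cells. With null B and C against WT D the difference was -6.93 ± 0.33 (edgeR adjusted p = 2.45e-89), and with all 8 libraries -4.12 ± 1.06 (edgeR adjusted p = 0.873). At E8.5 null A stood at 189 CPM, with *H19* in 22 of 35 cells, and null B at 3.7 CPM, against 496 and 530.1 CPM in WT. Null A was thus below both WT libraries in *Grb10* and in *H19*, and null B was below both in *H19* but between them in *Grb10*. The E8.5 call of *H19* was made with null A (-1.45 ± 0.15, edgeR adjusted p = 1.3e-17) and not with both null libraries (-1.95 ± 0.96, edgeR adjusted p = 0.975). Of the 20 genes of the imprinted list tested at E9.5 with at least 6 cells, *Grb10* was called (5%, beside 0.0716% of all genes), and the median was 0.04. *Zdbf2*, called in the same fit, is not on that list. *Nnat*, a paternally expressed gene, stood at 282, 0.991, 741 and 368 CPM in E9.5 null A to D and between 672 and 1113 CPM in WT, without a call.

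Of the genes called over both stages, *Zdbf2* and *Hist1h4i* were also called at E9.5 with at least 6 cells. *Zdbf2*, a zinc finger gene known to be imprinted (chr1:63273265-63314576), was higher in null cells. It stood at 77.1 and 77.6 CPM in E8.5 null and 46.1 and 43.3 CPM in E8.5 WT, and at 114, 142, 96.4 and 116 CPM in E9.5 null against 24.5, 34.5, 43.7 and 59.5 CPM in WT. Null and WT libraries did not overlap at either stage (nor did those of 34.1% of all genes tested at E8.5 and 3.67% at E9.5). The difference was 1.16 ± 0.17 (edgeR adjusted p = 5.19e-05). At E7.5 *Zdbf2* stood at 113 and 67.0 CPM in null and 22.2 and 126 CPM in WT libraries, which overlap. In Posterior somitic tissues, Sclerotome and Dermomyotome of E9.5 it ranged from 94.8 to 174 CPM in null and 47.5 to 69.5 CPM in WT. *Hist1h4i*, one of the clustered histone H4 genes (chr13:22040636-22041362), was lower by 2.38 ± 0.28 (log2 change -2.38, edgeR adjusted p = 8.54e-07), with null libraries between 4.7 and 17.2 CPM and WT between 23 and 68.7 CPM. Histone genes have near-identical copies, so the split of UMIs among them is uncertain. *Hist1h2bj*, a clustered histone H2B gene, was lower by the same test (-1.45 ± 0.28).

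Of the other 5 genes called over both stages, 3 were lower and 2 higher in null cells. *Akr1e1*, an aldo-keto reductase gene, stood at 0 to 6.62 CPM in null and 10.4 to 36.7 CPM in WT libraries (-3.29 ± 0.54, edgeR adjusted p = 0.000298). *Pusl1*, a pseudouridine synthase-like gene, stood at 0.952 to 9.94 CPM in null and 12.2 to 56.8 CPM in WT (-2.77 ± 0.43, edgeR adjusted p = 0.000228). *Has2*, which makes the hyaluronan of the embryonic matrix, was lower (-1.15 ± 0.24, edgeR adjusted p = 0.0118), with null at 4.3 to 30.5 CPM and WT at 18.4 to 54.1 CPM, which overlap. *Tubb6*, a beta tubulin gene, was higher (1.25 ± 0.25, edgeR adjusted p = 0.00692). *Irak1bp1* was higher as well (1.03 ± 0.24, edgeR adjusted p = 0.0278), but was not called by DESeq2 (adjusted p = 0.176). DESeq2 called 9 genes over both stages, 7 of them shared, and its other 2 calls were *Grb10* (-5.11, DESeq2 adjusted p = 0.000108) and *Cwc22* (1.76, DESeq2 adjusted p = 0.0158).

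*Cwc22*, a splicing factor gene, was called at E9.5 and not at E8.5. It stood at 178, 143, 139 and 335 CPM in null A to D and at 24.5 to 46.1 CPM in WT (2.34 ± 0.31, edgeR adjusted p = 0.00226). At E8.5 null stood at 74.3 and 104 CPM and WT at 80.3 and 59.5 CPM (0.26 ± 0.25), and the difference between the stages did not pass (edgeR adjusted p = 0.928). In Posterior somitic tissues, Sclerotome and Dermomyotome of E9.5 it ranged from 137 to 210.1 CPM in null and from 26.7 to 52.3 CPM in WT libraries.

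**Figure D4:**
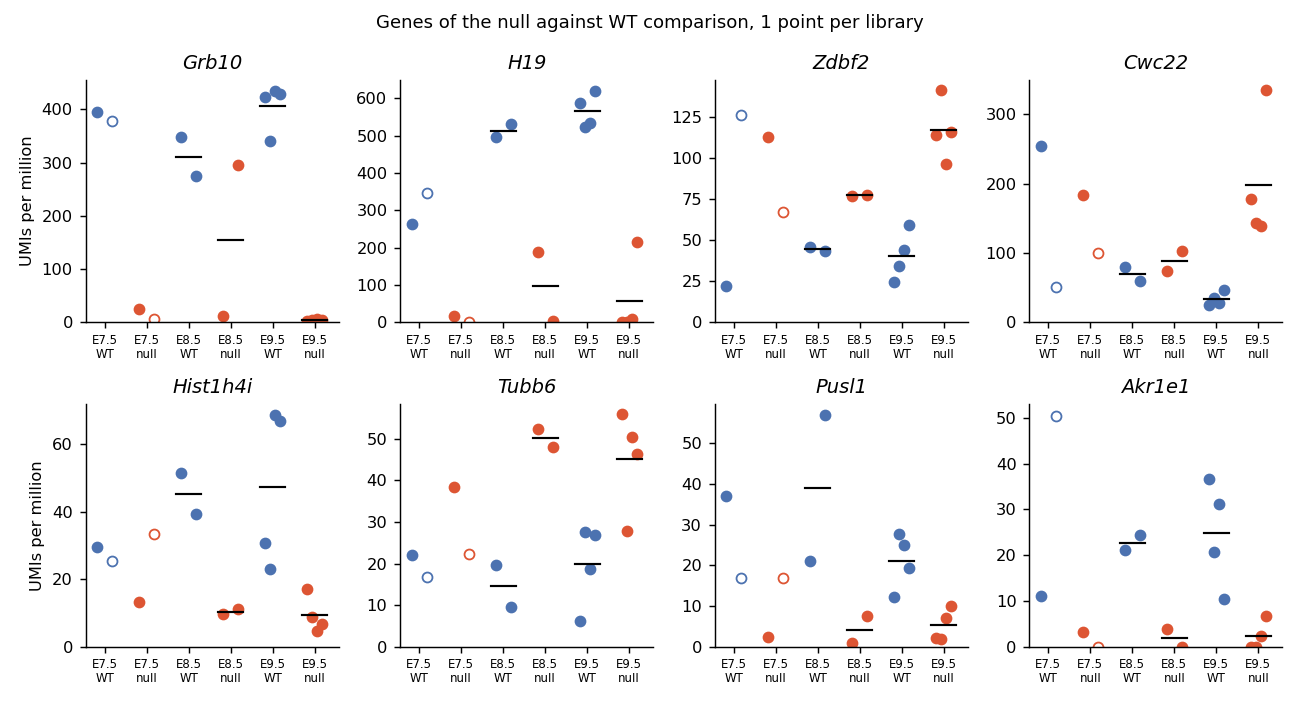
Levels (CPM, linear axes from 0) of 8 genes of the null against WT comparison, 1 point per library. Blue is WT, red is null, bars are means over the E8.5 or E9.5 libraries and open circles are libraries with fewer than 6 cells. *Grb10* is near 0 in all E9.5 null libraries and splits at E8.5, while *Zdbf2* null libraries lie above WT at E8.5 and E9.5.

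Many calls made with more than 15 cells rested on the lone library. At E8.5 null A stood above both WT libraries in the called genes *Fdps* (91.4 CPM against 36.9 and 36.5 CPM in WT), *Cyp51* (67.6 against 26.3 and 33.8 CPM) and *Pmvk* (70.5 against 21.1 and 40.6 CPM). All 3 encode enzymes of sterol synthesis, of which no list was tested. Null B stood at 40.7, 44.4 and 29.6 CPM for these genes, and none was called with both libraries. *Atg2a*, an autophagy gene, was called in null A at 43.8 CPM, where 1 cell held 38 of 46 UMIs. *Meox1* was called lower in E8.5 null A (18.1 CPM against 30.3 and 71.7 CPM in WT, -1.49 ± 0.36, edgeR adjusted p = 0.016). Null B stood at 51.8 CPM, inside the WT range, and with both the difference was -0.94 ± 0.58 (edgeR adjusted p = 0.975). At E9.5 *Meox1* stood at 4.3, 4.95, 45.9 and 16.6 CPM in null and 79.6, 43.7, 31.2 and 20.8 CPM in WT, which overlap (-0.93 ± 0.84, edgeR adjusted p = 1). *Tcf15* was not called in any of these fits, and E9.5 null C at 87.0 CPM stood above all other E9.5 libraries. At E9.5 WT D was the lone library. It was low in *Hist1h2ae*, *Hist1h3c* and *Hist1h4d* (13.4, 0 and 19.3 CPM) and high in *Sox2* (40.2 CPM). The 3 histone genes were not called with all 8 libraries, and *Sox2* did not reach the filter there.

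Lists of pathway and tissue genes were also counted between null and WT cells. With 0.0462% of all genes called at E8.5 and 0.0716% at E9.5, lists of this size would hold no call in most cases, so a count of 0 says little about a list. With at least 6 cells, none of 10 somite genes tested at E8.5 and none of 8 at E9.5 was called, with medians of -0.18 and -0.16 (all genes tested, medians of 0.00 and 0.00). Of the STAT3 pathway, 8 genes were tested at E8.5 and 6 at E9.5, none was called and the medians were 0.08 and -0.06. *Socs3*, the feedback inhibitor, was at 1.9 to 12.9 CPM in every E8.5 and E9.5 library and did not reach the filter. The kinase genes *Jak1* and *Pim1* were tested, at 0.14 ± 0.20 and -0.15 ± 0.18 over both stages. Hedgehog genes had medians of -0.29 and -0.27, Wnt genes of 0.05 and 0.22, Notch genes of -0.15 and -0.03, FGF genes of 0.44 and 0.09, retinoic acid genes of 0.09 and -0.17, and BMP genes of 0.09 and -0.12, with no call in any. Glycolysis and hypoxia genes (19 and 15 tested) had medians of 0.13 and 0.09, and p53 targets (3 and 3) of -0.21 and -0.11. Sclerotome, dermomyotome, neural tube, neural crest, endothelial, lateral plate, intermediate mesoderm, notochord and gut lists had from 0 to 4 testable members each and no call. Of the S phase genes 40 and 35 were tested, and of the G2 and M phase genes 51 and 51, again with no call.

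Developmental stage, cell cycle and mitochondrial share were compared per library. The exact two-sided permutation test within stages allowed a smallest p of 0.111 with more than 15 cells and 0.00476 with at least 6. The mean mapped atlas stage ranged from 8.63 to 8.86 at E8.5 and from 8.73 to 9.02 at E9.5, and null minus WT was -0.08 days with at least 6 cells (exact permutation p = 0.205). The S phase share of UMIs differed by -0.0278 percentage points (exact permutation p = 0.186, adjusted over both shares 0.186) and the G2 and M phase share by 0.0621 (p = 0.138, adjusted 0.186, exact permutation test). The median mitochondrial share differed by -0.267 percentage points (exact permutation p = 0.152). With more than 15 cells the 4 differences were -0.04 days, -0.00777, -0.0118 and -0.258 percentage points, with exact permutation p of 0.889, 0.556, 0.556 and 0.667.

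The share of null cells that carried this label was not told apart from that of WT cells by the tests. At E8.5 the label made up 0.865% (exact 95% binomial interval 0.543 to 1.31) and 0.967% (0.682 to 1.33) of WT A and B, and 0.913% (0.637 to 1.27) and 0.698% (0.302 to 1.37) of null A and B. At E9.5 it made up 0.195% (0.0715 to 0.424) of WT A, 0.454% (0.235 to 0.792) of WT B, 0.368% (0.148 to 0.756) of WT C and 0.556% (0.349 to 0.841) of WT D. In E9.5 null A to D the shares were 0.324% (0.177 to 0.542), 1.04% (0.672 to 1.53), 1.32% (0.818 to 2.01) and 0.388% (0.143 to 0.843). Null B and C stood above every E9.5 WT library, and null A and D among them. The log2 ratio of null over WT was -0.18 ± 0.47 (SE) at E8.5 (edgeR adjusted p = 1.00 over 68 labels) and 0.95 ± 0.55 at E9.5 (edgeR adjusted p = 0.963 over 71 labels, of which 1 was called, 1.41%). At E7.5 it was 0.67 ± 1.19 (edgeR adjusted p = 0.991).

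**Figure D5:**
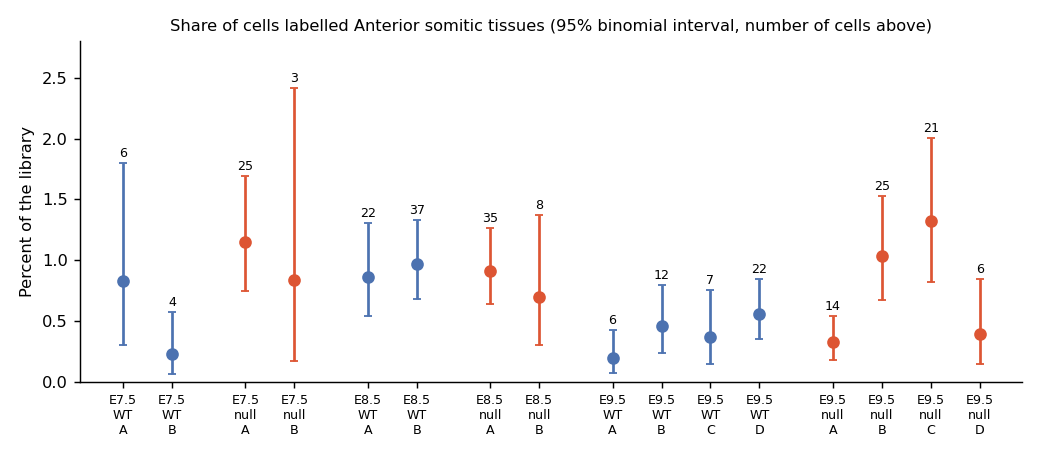
Share of each library's cells that carried the label (percent, bars are exact 95% binomial intervals for counting error only, the number of cells stands above). Blue is WT and red is null. E9.5 null B and C have the highest E9.5 shares and null A and D lie within the WT range.

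Whether null and WT differ more in one setting than in another was tested directly. The lone E9.5 WT library with more than 15 cells was WT D. Between E9.5 and E8.5, 3 of 7976 genes had a different genotype effect with more than 15 cells (0.0376%), namely *H19* (-5.47), *Hist1h3c* (8.17) and *Hist1h2ae* (2.91), and 0 of 7317 with at least 6 cells (edgeR, 248 at an unadjusted p under 0.05). Against other labels at E9.5, with more than 15 cells and the library as a block, *Igfbp5* (-3.33) and *Gfod2* (-1.90) differed from Posterior somitic tissues among 8851 genes (0.0226%), *Gfod2* (-2.60) and *Igfbp5* (-1.79) from Dermomyotome among 9258 (0.0216%), and *Pmp22* (-4.24) from Sclerotome, where 2 of 10958 were called (0.0183%). With at least 6 cells none of these was called. Of the *Gfod2* UMIs 1 cell held 39 of 73 in WT D. *Hoxc8*, a *Hox* gene of the trunk, was called in their place against all 3 labels (-4.43, -4.26 and -3.97 against Posterior somitic tissues, Sclerotome and Dermomyotome). The genes called were 1 in the first (0.0111%), 1 in the second (0.00936%) and 2 in the last (0.0225%), where *Grb10* was the other. It stood at 12.2, 41.4, 12.5 and 10.4 CPM in WT A to D and at 2.15, 0, 1.18 and 0 CPM in null A to D. These levels rest on few cells. In WT B all 18 UMIs came from 1 of 12 cells, and WT A, C and D held 2, 4 and 7 UMIs in 2, 1 and 4 cells. Without WT B no *Hoxc8* call was made against any of the 3 labels (-3.74, -3.52 and -3.47, edgeR adjusted p of 0.0977, 0.315 and 0.252). The calls were also lost without null C against Sclerotome and Dermomyotome, and without null D against Sclerotome.

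Genes were ranked by their variance to mean ratio over single WT cells of E9.5, pooled over libraries. This ratio can rise with the mean of a gene and with differences between libraries. *Malat1*, the first in rank, had a mean of 93.7 UMIs and was at 0 in no cell. Over 47 cells thinned to 10000 UMIs and 3131 genes with a mean of at least 0.5 UMI, the variance to mean ratio was highest for *Malat1*, a nuclear RNA (19.4), *Nnat* (17.5) and *Crabp1* (10.5). *Crabp1* ranged from 0 to 42 UMIs per cell with a median of 6, and 26 cells held more than 5. *Nnat* ranged up to 64 UMIs with a median of 5. *Gfod2*, *Ckb*, *Igfbp5* and *Dqx1* (9.86, 8.02, 5.93 and 5.27) were at 0 in 28, 33, 31 and 37 of the 47 cells and over 5 UMIs in 4, 2, 3 and 1. *Id2*, an inhibitor of helix-loop-helix factors, *Hist1h1b*, a linker histone, and *Ptn*, a secreted growth factor, had ratios of 6.92, 5.76 and 4.61.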

How the data were processed

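Single-cell RNA-seq (10x 3′ v3) was made from sorted chimeric embryos. The deposited count matrix held UMI counts per gene and cell. The authors aligned reads with Cell Ranger to mm10 with a tdTomato sequence added, kept cells within limits on UMIs, genes, mitochondrial and ribosomal share, called doublets from a hybrid score and transferred labels from 25 nearest atlas cells. The deposited metadata gave the mitochondrial percent of each cell and, as a fraction, the label's support among the nearest cells. Of 41832 cells in the matrix, 3395 were called doublets by the authors and left out.

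Counts were summed per library over the members and tested with edgeR 4.0.16 (TMM, quasi-likelihood, Benjamini-Hochberg, adjusted p under 0.05 and more than 1 log2 unit), with DESeq2 1.42.0 as an alternative. Levels are UMIs per 1000000 of the summed counts (CPM), and the limit that a count of 0 allows ranged from 2.45 to 25.2 CPM over the 16 libraries. Predicted, Rik, ribosomal, mitochondrial, haemoglobin, Y-linked, Xist, Tsix and tdTomato genes were left out (8168 of 29453 symbols), as in the study's methods, but imprinted genes were kept. Labels do not tie the libraries to embryo pools, so p-values measure the spread between libraries. Libraries of more than 15 cells entered the fits as planned, and at least 6 cells, the fit over both stages, the E7.5 shares and the null stage comparison were chosen after the data were seen. Other settings tried were DESeq2, other size factors, no filter, 1 common fit and leaving out each library. The members and lists were chosen with earlier results of these data known. Named genes were *Stat3*, *Meox1* and *Tcf15*, and up to 12 called genes per direction with groups that do not overlap. List members that were called (or the highest of a list) were also named. So were the 10 genes with the highest variance to mean ratio, and up to 6 genes per interaction. Genes of the fits added later and others that a sentence singles out were chosen after their values were seen. One called gene is not reported here. Simulated counts were run through the null against WT fits of E8.5 and E9.5, the fit over both stages and the E9.5 share test. The other fits were not tested in this way. Python 3.11.15 and R 4.3.3 were used.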

Additional observations from a re-analysis of the deposited data

Results flagged for a closer look

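In 9 of 106 groups of 4 libraries, 1 library stood far from the other 3. This was judged by its gap to the nearest library over the range of all 4, without counting error. Values that lie close together can thus be flagged. Many groups were levels of genes already chosen for the text, some with few UMIs, so no rate by chance is given. *Tcf15* stood at 87.0 CPM in E9.5 null C, against 2.97 to 10.7 CPM in the other null libraries. *Grb10* stood at 340.4 CPM in E9.5 WT B (others 423 to 434), and *H19* at 215 CPM in E9.5 null D (others 0 to 8.23), where 1 cell held 61 of 65 UMIs. *Sox2* stood at 40.2 CPM in E9.5 WT D (others 2.3 to 6.12) and *Gfod2* at 242 CPM in E9.5 null D (others 25.8 to 34.7), where 1 of 6 cells held 42 of 73 UMIs. *Limch1* stood at 131 CPM in E9.5 WT C (42 UMIs), close to the 147 to 150.2 CPM of the others (24 to 101 UMIs). *Etv2* stood at 3.96 CPM in E9.5 null B (4 UMIs, others at 0) and *Hoxc8* at 41.4 CPM in E9.5 WT B (others 10.4 to 12.5). For *Etv2*, a count of 0 allows up to 6.45, 3.53 and 9.94 CPM in null A, C and D, above or near the level of null B, so a difference was not detectable at this depth. The summed glycolysis and hypoxia list stood at 10194 CPM in E9.5 null C (others 7660 to 7963).

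In 12 reported cases the difference between null and WT differed between settings by the edgeR test of that difference. With more than 15 cells, where E9.5 WT D and, for the stages, also E8.5 null A stood alone in their group, these were *H19* (-5.47), *Hist1h3c* (8.17) and *Hist1h2ae* (2.91) between E9.5 and E8.5, *Igfbp5* (-3.33) and *Gfod2* (-1.90) against Posterior somitic tissues, *Gfod2* (-2.60) and *Igfbp5* (-1.79) against Dermomyotome, and *Pmp22* (-4.24) against Sclerotome. In WT D 1 cell held 39 of the 73 *Gfod2* UMIs. None of these genes was called in these comparisons with at least 6 cells, and *Hist1h3c* (-0.27) and *Hist1h2ae* (-0.0596) turned sign there. The calls with at least 6 cells were *Hoxc8* against Posterior somitic tissues (-4.43), Sclerotome (-4.26) and Dermomyotome (-3.97), and *Grb10* against Dermomyotome (-2.0). Each E9.5 null library held only 1 to 5 *Grb10* UMIs in these cells.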

How the results depend on the processing

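No paired analysis was possible because the library names do not tie libraries to the numbered embryo pools. Counts below are genes called. E8.5 null against WT gave 20, but 2 with DESeq2, 0 without a filter (402 at an unadjusted p under 0.05), 4 with both stages in 1 fit, 3 with at least 6 cells and 0 with DESeq2 at that minimum (33 at an unadjusted p under 0.05). E9.5 gave 15, but 4 with DESeq2, 4 with at least 6 cells and 5 with DESeq2 at that minimum. Over both stages it gave 8, and 17 without the fold threshold. WT stage gave 215, but 32 with DESeq2, 0 without a filter (1072 at an unadjusted p under 0.05), 100 in 1 fit and 143 with at least 6 cells. The stage interaction gave 3, 9 without a filter and 0 with at least 6 cells. The interaction with Posterior somitic tissues gave 2, and 1 with RLE and with at least 6 cells. With Sclerotome it gave 2, 4 without a filter and 1 with at least 6 cells. With Dermomyotome it gave 2, 6 with RLE and 4 without a filter. The S phase difference turned to 0.00127 percentage points when thinned, and the G2 and M phase difference to 0.0621 with at least 6 cells.

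A library could be left out of the fits with more than 15 cells only in 1 fit over both stages and genotypes, which changes 2 choices at once and is read against the 4 (E8.5), 10 (E9.5) and 100 (WT stage) calls of that whole fit. This gave 3 to 18 calls at E8.5 (7 without E8.5 WT A, 18 without E9.5 null B or C), 15 to 38 at E9.5 (15 without E8.5 WT A or B, 38 without E9.5 null B, 33 without null C) and 90 to 229 for WT stage (224 without E9.5 null B, 229 without null C). The stage interaction gave 5 to 22 (7 without E8.5 WT A, 5 without WT B, 22 without E9.5 null B, 21 without null C). The counts with at least 6 cells were 6 to 9 over both stages and 80 (without E8.5 WT B) to 173 for WT stage. The interactions gave 0 to 4 (Posterior somitic tissues), 0 to 2 (Sclerotome) and 0 to 4 (Dermomyotome), with *Hoxc8* lost against all 3 without E9.5 WT B. Log2 ratios of shares ranged from 0.07 to 1.71 at E7.5, -0.38 to 0.025 at E8.5 and 0.52 to 1.23 at E9.5. Mapped stage ranged from -0.10 to 0.018 days, S phase from -0.013 to -0.0022, G2 and M phase from -0.037 to 0.014 and mitochondrial share from -0.54 to 0.02 percentage points. E8.5 null A and E9.5 WT D could not be left out of fits with more than 15 cells, nor any library of the label interactions, and E7.5 null A left no share ratio.

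Log2 differences turned with at least 6 cells for *Igfbp5* at E8.5 (0.36, DESeq2 0.82), *Hist1h2ae* at E9.5 (-0.059, DESeq2 -0.32), *Hist1h2ae* (-0.0596) and *Hist1h3c* (-0.27) in the stage interaction, and *Hist1h3c* (0.25) and *Tc2n* (1.67) in WT stage. By DESeq2 only, they turned for *Ckb* (0.0054), *Hist1h3c* (-0.24) and *Hist1h4d* (-0.036) at E9.5. Leaving out 1 library, over both minimums, the WT stage values ranged from -4.37 to 0.34 for *Hist1h2ae*, -8.70 to 0.97 for *Hist1h3c*, -3.45 to 0.34 for *Hist1h4d*, -1.98 to 0.096 for *Meox1*, -0.097 to 2.69 for *Sox2* and -7.34 to 4.57 for *Tc2n*. The causes were not tested. Of 105 genes and comparisons, 5 were called under every alternative run.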
